A study of Mus musculus with 8 samples.

Results

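The HoxB cluster is a row of homeobox genes on mouse chromosome 11, and its 10 genes were followed here across 8 RNA-seq libraries. The members are Hoxb1, Hoxb2, Hoxb3, Hoxb4, Hoxb5, Hoxb6, Hoxb7, Hoxb8, Hoxb9 and Hoxb13, taken by symbol from a table of 55421 genes. All 10 were in the table. Of these, 9 had a mean of at least 1 TPM (a transcript level scaled by gene length and library total, so that levels of genes can be compared) and were tested, and Hoxb13 was not.

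The tissue was the vagal region, the level of somites 1 to 7, cut from mouse embryos at stage E9.5. One group of 4 libraries, called trex, had the genotype Rdh10 trex/trex, a homozygous mutant. The other 4, called wt, were wild type. Both groups share the stage, the dissection and the poly-A selected, strand-specific library kit, and the labels name no other allele or agent. The labels do not give the strain, the nature of the trex lesion, or whether a library is 1 embryo or a pool. P-values therefore measure the spread between these libraries, which may be partly technical.

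Hox genes encode transcription factors that give each level of the body axis its identity. Within a cluster they are switched on in the order in which they lie on the chromosome: genes at the 3′ end, such as Hoxb1, act early and far forward, and genes toward the 5′ end, such as Hoxb9, later and further back. Retinoic acid is a known inducer of 3′ Hox genes in the hindbrain and adjoining tissue, and Rdh10 makes retinaldehyde, its precursor. The comparison asks how HoxB transcripts in this region differ when Rdh10 carries the trex allele.

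The cluster spans 173.9 kb of chromosome 11, from 96194316 to 96368256 on mm10, with every member on the plus strand. Hoxb9 to Hoxb1 fill 96.8 kb of it, and Hoxb13 stands 74.0 kb apart from Hoxb9. RefSeq promoter sequence (GRCm38.p6, the assembly of mm10) was at hand for 3 of the 10 members. These 3 are shown because they are the members with an entry. Each runs 5′ to 3′ up to the last base before the annotated gene start. Capitals mark matches, on either strand, to 5 patterns: the Hox-Pbx pattern TGATNNAT, the Cdx pattern TTTATG, the retinoid receptor core AGGTCA, and that core repeated in the same direction after 2 or after 5 bases of any kind. Both repeats contain the core.
Hoxb1, chr11:96365508-96365751, plus strand: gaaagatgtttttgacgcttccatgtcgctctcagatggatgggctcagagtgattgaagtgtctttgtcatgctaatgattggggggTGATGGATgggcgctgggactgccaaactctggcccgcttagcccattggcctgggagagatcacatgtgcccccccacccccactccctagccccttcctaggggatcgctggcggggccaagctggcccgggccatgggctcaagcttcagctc
Hoxb4, chr11:96318017-96318266, plus strand: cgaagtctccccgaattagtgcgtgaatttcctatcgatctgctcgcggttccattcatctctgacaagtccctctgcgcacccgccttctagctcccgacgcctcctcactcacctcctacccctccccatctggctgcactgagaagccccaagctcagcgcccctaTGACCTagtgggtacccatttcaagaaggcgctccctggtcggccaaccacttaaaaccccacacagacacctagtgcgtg
Hoxb8, chr11:96281655-96281904, plus strand: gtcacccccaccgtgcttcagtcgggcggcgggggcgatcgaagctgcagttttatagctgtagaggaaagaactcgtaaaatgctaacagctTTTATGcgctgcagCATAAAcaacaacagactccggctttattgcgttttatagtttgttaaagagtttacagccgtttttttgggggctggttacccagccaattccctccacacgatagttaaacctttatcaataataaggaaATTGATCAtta

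The Hoxb1 window held 1 match to the Hox-Pbx pattern, the Hoxb4 window 1 receptor core, and the Hoxb8 window 2 matches to the Cdx pattern and 1 to the Hox-Pbx pattern. Over 32851 RefSeq windows of 250 bases, 7.68% held the Hox-Pbx pattern, 10.8% the Cdx pattern, 14% the receptor core, and 0.00913% each repeat; neither repeat was in the 3 windows shown. A match describes the letters only and was not tested for binding.

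The cluster also holds 2 microRNA genes, Mir196a-1 between Hoxb13 and Hoxb9 and Mir10a between Hoxb5 and Hoxb4. Their mature 5p strands are given with the seed, bases 2 to 8, in capitals (RefSeq, GRCm38.p6). They are shown because miR-196a is known for cutting Hoxb8 mRNA through a nearly perfect site, which was found here in exon 2 of the GENCODE Hoxb8 transcript, within the 3′ UTR, with Watson-Crick pairs in capitals.
mmu-miR-196a-5p: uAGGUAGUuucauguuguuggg
mmu-miR-10a-5p: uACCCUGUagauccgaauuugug
Hoxb8 site, chr11:96284888-96284909, plus strand: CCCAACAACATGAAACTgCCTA

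Of the 22 bases of miR-196a-5p, 21 pair with this site and the other forms a G:U pair. In 18 transcripts of the other members the best ungapped site, by Watson-Crick and G:U pairs together, had at most 14 Watson-Crick pairs. Transcripts of Hoxb1, Hoxb6 and Hoxb7 also held matches to the seed, and whether they are targets was not tested. The libraries do not measure mature microRNAs. The host locus Mir196a-1 was at 0 reads in all 8 libraries, and Mir10a had 1 read, in trex replicate 1.

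Some facts of the whole data set bear on every value below. Recovered depth, worked out from the lowest TPM steps, was 20928981 to 23648646 reads a library. Rdh10 itself stood at 62.7 to 106 TPM in trex and 36.3 to 41.0 in wt, which does not check the labels, since a mutation need not lower the transcript. The trex libraries spread widely on the first principal component (43.1% of the variance), from -56.8 in trex replicate 1 to -2.05 in trex replicate 2, with wt at 21.3 to 28.0. Y-linked transcripts were present in wt replicates 2 and 3 (162 and 158 TPM) and at most 0.0662 TPM elsewhere. Of the 11 HoxA, HoxC and HoxD genes of groups 10 to 13, the groups furthest 5′ in a cluster, 4 were at 0 reads in every library and the others were at most 4.42 TPM. Replicates 3 and 4 of wt held 59 and 37 reads of Hoxa11, 43 and 26 of Hoxa10 and 36 and 16 of Hoxd10, against at most 2 reads of each in wt replicates 1 and 2. In trex they reached 17, 4 and 25 reads, in replicate 3. The midbrain and forebrain gene Otx2 reached 5.46 TPM in trex replicate 1 and at most 1.47 in the others.

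Of 9 tested members, 4 fell (Hoxb1, Hoxb3, Hoxb4 and Hoxb5), 2 rose (Hoxb7 and Hoxb9) and 3 were not called (Hoxb2, Hoxb6 and Hoxb8), at a limma adjusted p below 0.05. Over all 15717 tested genes 8.71% were called, 3.77% lower and 4.94% higher. The same 6 members had trex and wt values that did not overlap, as did 21.8% of all tested genes, 8.95% in the lower direction and 12.9% in the higher. The median log2 difference of the members was -0.10, and that of all tested genes was 0.04. In bulk tissue, fewer cells of a type and less RNA per cell cannot be told apart. With sex, read from the Y-linked transcripts, as a covariate, none of the 9 members was called by limma, although 4 were lower and 3 higher at an unadjusted p under 0.05. No trex library was male by this measure, so sex is estimated there from wt alone.

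**Figure D1:**
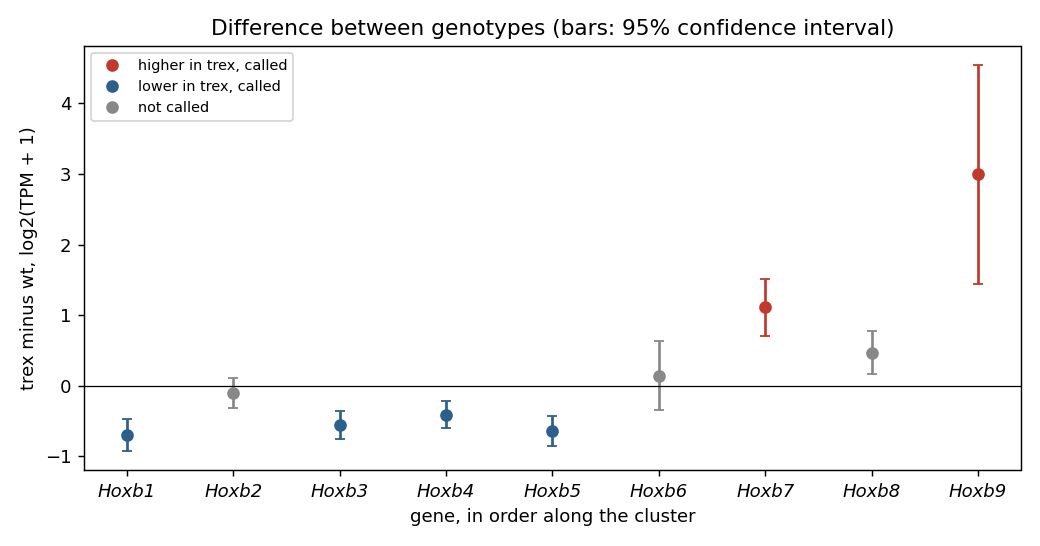
The log2 difference of each tested HoxB gene, trex minus wt on log2(TPM + 1), in order from Hoxb1 to Hoxb9; bars are 95% confidence intervals from limma, not adjusted over genes. The differences lie between -0.70 and -0.10 from Hoxb1 to Hoxb5, in no steady order. They are 0.14 at Hoxb6, 1.11 at Hoxb7, 0.47 at Hoxb8 and 2.99 at Hoxb9.

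Hoxb1 gives identity to a segment of the hindbrain and is a classic direct target of retinoic acid receptors. It stood at 23.3, 21.6, 17.2 and 19.6 TPM in trex replicates 1 to 4 and at 29.8, 34.7, 35.9 and 34.0 TPM in wt replicates 1 to 4. Every trex library lay below every wt library. The gene fell 1.65-fold, with a log2 difference of -0.70 ± 0.10 (SE) and an adjusted p of 0.00874 (limma, n = 4 each).

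Hoxb2, which acts in the hindbrain downstream of Hoxb1, was the 1 member from Hoxb1 to Hoxb5 that did not pass. It stood at 83.7, 64.5, 74.6 and 64.0 TPM in trex and at 85.1, 76.6, 73.1 and 72.5 TPM in wt. The groups overlapped, and trex replicate 1 was close to the highest wt library. The log2 difference was -0.10, with a 95% interval from -0.32 to 0.11 (adjusted p = 0.485), so a fall as large as that of Hoxb1 lies outside the interval.

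Hoxb3 and Hoxb4 mark the caudal hindbrain and anterior spinal cord, and both respond to retinoic acid through known enhancers. Hoxb3 stood at 74.4, 85.3, 75.04 and 72.7 TPM in trex and at 115, 130, 113 and 97.2 TPM in wt. It fell 1.48-fold, and the groups did not overlap (log2 difference -0.56 ± 0.09 SE, adjusted p = 0.0122). Hoxb4 stood at 55.7, 51.5, 42.5 and 48.2 TPM in trex and at 65.3, 71.3, 65.3 and 61.5 TPM in wt. Its fall was smaller, 1.33-fold, again without overlap (log2 difference -0.41 ± 0.08 SE, adjusted p = 0.0260). It was the least firm of the falls: leaving out trex replicate 4 or wt replicate 1, 2 or 3 ended the call (adjusted p of 0.0660 to 0.0932), while Hoxb1, Hoxb3 and Hoxb5 were called without any 1 library.

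Hoxb5 is expressed in vagal neural crest and in the gut wall, and it is known to regulate Ret, the receptor that enteric crest cells need. It stood at 23.5, 25.9, 20.2 and 21.9 TPM in trex and at 33.6, 40.8, 36.3 and 34.2 TPM in wt. Each trex library was below each wt library, and the gene fell 1.58-fold (log2 difference -0.64 ± 0.09 SE, adjusted p = 0.00852). Its interval of -0.85 to -0.44 overlapped that of Hoxb1, -0.92 to -0.47.

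Hoxb6, the next gene 5′ of Hoxb5, is used in trunk mesoderm and spinal cord. It stood at 20.7, 43.4, 34.7 and 44.4 TPM in trex and at 30.1, 30.7, 35.1 and 28.7 TPM in wt. The trex libraries lay on both sides of the wt range, with replicate 1 below it and replicates 2 and 4 above it. The log2 difference of 0.14 had an interval from -0.35 to 0.63 (adjusted p = 0.688), and the trex spread of 30.7% of the mean was the widest of any tested member in that group. Without trex replicate 1 the difference was 0.38 (adjusted p = 0.0537).

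Hoxb7 and Hoxb8 pattern the trunk at and behind the forelimb. Hoxb7 stood at 21.6, 37.4, 24.7 and 31.0 TPM in trex and at 12.9, 9.82, 14.5 and 13.04 TPM in wt. The lowest trex library was above the highest wt library, and the gene rose 2.28-fold (log2 difference 1.11 ± 0.18 SE, adjusted p = 0.0121). Leaving out any 1 library did not end that call (adjusted p up to 0.0459). Hoxb8 stood at 64.4, 87.5, 60.0 and 70.6 TPM in trex and at 47.9, 42.6, 60.2 and 52.2 TPM in wt. Here trex replicate 3 lay just under wt replicate 3, so the groups touched, and the log2 difference of 0.47 (interval 0.16 to 0.77, not adjusted over genes) was not called (adjusted p = 0.0646).

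Hoxb9, a gene of the thoracic level, had the largest difference among the members. It stood at 382, 337, 259 and 345 TPM in trex and at 29.3, 8.57, 88.9 and 110 TPM in wt. In reads, these levels were 3538 to 5678 in trex and 410, 125, 1336 and 1646 in wt replicates 1 to 4. The mean was 5.59-fold higher in trex (330.8 ± 51.7 against 59.2 ± 48.0 TPM, SD, n = 4 each), with a log2 difference of 2.99 ± 0.68 (SE) and an adjusted p of 0.0342. The groups did not overlap, but wt replicates 1 and 2 were far below wt replicates 3 and 4. On the log2 scale the wt SD of Hoxb9 was 1.63, larger than that of 99.7% of tested genes; the wt SD of the other members was at most 0.22. The call was lost without trex replicate 1, 3 or 4 or wt replicate 1 or 3 (adjusted p of 0.0522 to 0.0871) and with the replicate number as a block (0.0536), and without wt replicate 2 the log2 difference was 2.29 (adjusted p = 0.0473).

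Hoxb13, the far 5′ gene of tail bud and hindgut, had 1 read in trex replicate 1, 1 in trex replicate 4 and none in the other 6 libraries. Both groups are below 3 reads a library, so no fold is given.

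**Figure D2:**
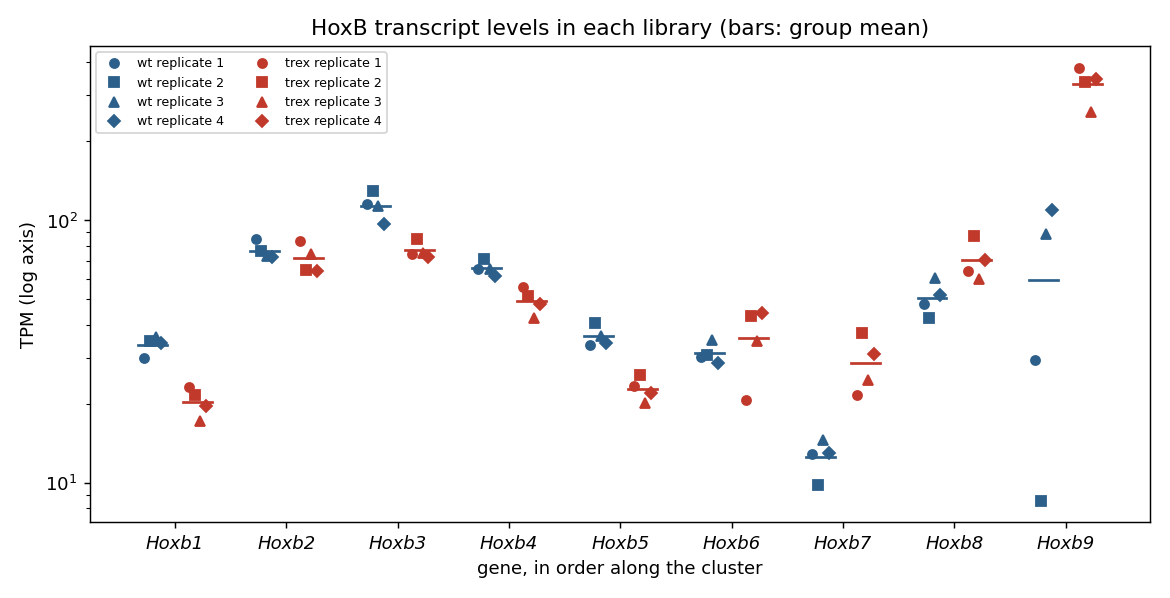
TPM of the 9 tested HoxB genes in each library on a log axis, wt in blue and trex in red, with a bar at each group mean and 1 symbol per replicate number. The groups separate for Hoxb1, Hoxb3, Hoxb4, Hoxb5, Hoxb7 and Hoxb9, and wt replicates 1 and 2 sit lowest for Hoxb9, at 29.3 and 8.57 TPM.

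The order of the members' levels differed between the genotypes. TPM is scaled by length, so levels can be set side by side. In wt the means ran from Hoxb3 (114 TPM) through Hoxb2 (76.8), Hoxb4 (65.8), Hoxb9 (59.2), Hoxb8 (50.7), Hoxb5 (36.2), Hoxb1 (33.6) and Hoxb6 (31.1) to Hoxb7 (12.6). Among neighbours in that order, the ranges of Hoxb4 and Hoxb9, Hoxb9 and Hoxb8, Hoxb5 and Hoxb1, and Hoxb1 and Hoxb6 overlapped. In trex Hoxb9 came first in all 4 libraries (330.8 TPM) and did not overlap with the next, Hoxb3 (76.9). Hoxb3, Hoxb2 (71.7) and Hoxb8 (70.6) overlapped with one another, Hoxb8 stood clear of Hoxb4 (49.5), and from Hoxb4 down to Hoxb1 (20.4) each range overlapped with its neighbour. Hoxb9 ranked eighth, ninth, second and first among the members in wt replicates 1 to 4.

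Ratios within a library do not depend on how the libraries are scaled to each other. The ratio of Hoxb9 to Hoxb8, whose genes lie 5.31 kb apart, was 5.94, 3.86, 4.32 and 4.88 in trex and 0.612, 0.201, 1.48 and 2.11 in wt. The ratio of Hoxb7 to Hoxb5 was 0.919, 1.44, 1.22 and 1.41 in trex and 0.384, 0.241, 0.400 and 0.381 in wt. Neither ratio overlapped between the genotypes. For Hoxb7 to Hoxb5 this had to follow, since each gene alone separated the groups, in opposite directions. For Hoxb9 to Hoxb8 it had to follow too, since the gap at Hoxb9 was wider than the spread of Hoxb8 could offset. Neither ratio is a separate result. Hoxb6 to Hoxb5 gave 0.880, 1.68, 1.71 and 2.02 in trex against 0.752 to 0.965 in wt, with trex replicate 1 inside the wt range.

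Summed over the members, HoxB transcripts came to 608 to 754 TPM in trex and 445 to 522 TPM in wt. Hoxb9 made up 42.6% to 51.0% of that sum in trex, and 6.52%, 1.93%, 17.0% and 21.9% in wt replicates 1 to 4. Hoxb1 to Hoxb5 together came to 226 to 261 TPM in trex and 299 to 353 TPM in wt. The higher sum in trex was thus carried by Hoxb9, while the sum over the 3′ genes was lower.

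**Figure D3:**
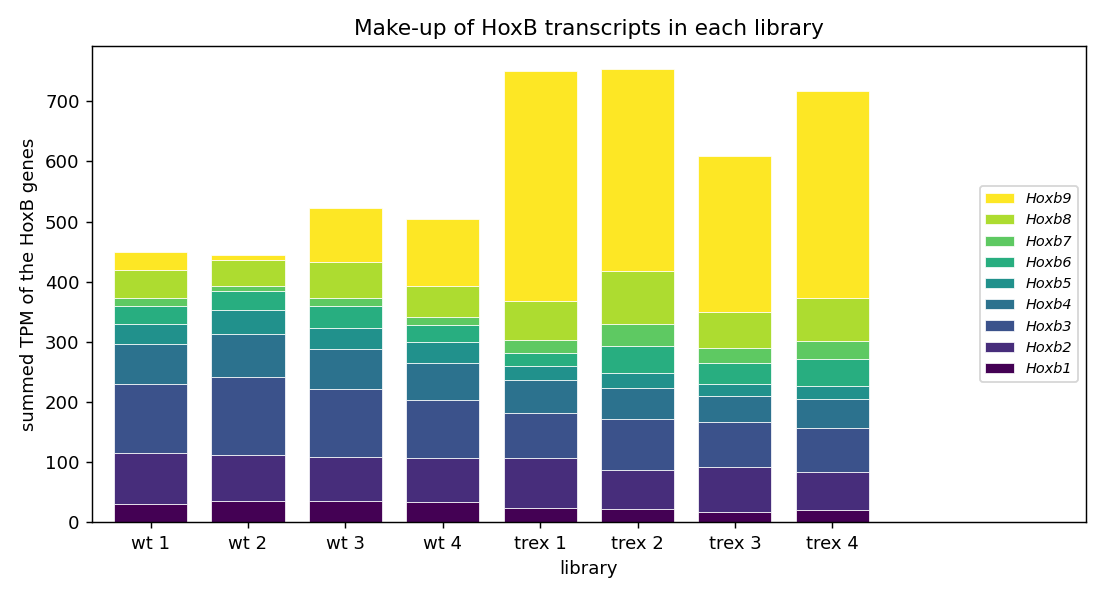
Stacked bars give the summed TPM of the HoxB genes in each library, with Hoxb1 at the base and Hoxb9 at the top. Hoxb9 takes 42.6% to 51.0% of each trex bar and 1.93% to 21.9% of each wt bar.

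Antisense transcripts run through the cluster on the minus strand. Hoxb5os, which starts beyond Hoxb5 and crosses Hoxb6, stood at 180, 95.6, 75.03 and 116 TPM in trex and at 29.3, 19.5, 48.0 and 54.4 TPM in wt. It rose 3.09-fold without overlap (log2 difference 1.63 ± 0.35 SE, adjusted p = 0.0292). Of its sense partners, Hoxb5 fell and Hoxb6 was not called. Leaving out trex replicate 4, or any of wt replicates 1 to 3, ended the call (adjusted p of 0.0568 to 0.0788) and with the replicate block (0.0516). Only 100 exonic bases, 3.59% of Hoxb5, are shared with Hoxb5os, and none of Hoxb6.

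Hoxb3os overlaps more. It shares 2250 exonic bases with Hoxb3 (52.9% of that gene) and 953 with Hoxb2 (27.3%). It stood at 56.5, 33.8, 38.8 and 29.5 TPM in trex and at 33.3, 20.8, 20.3 and 18.4 TPM in wt, and was not called (log2 difference 0.74 ± 0.23 SE, adjusted p = 0.0771); with the replicate block it was (0.0158). The counter's strand setting is not given in the sources used here, so reads of Hoxb3, Hoxb2 and Hoxb3os in the shared exons may not have been told apart, and the values of all 3 are uncertain to that extent. The small antisense gene Gm11536 within Hoxb3 (0 to 5.18 TPM, adjusted p = 0.152) and the pseudogene Gm11539 between Hoxb13 and Hoxb9 (7.07 to 11.01 TPM, adjusted p = 0.327) were not called. The long non-coding gene Gm53 beside Mir196a-1 was at most 0.261 TPM, and the remaining 2 small RNA genes of the span were at 0.

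Outside the cluster, 6 protein-coding genes lie wholly within 200 kb, all on the Hoxb13 side, so the side next to Hoxb1 was not covered. Of these 6, 3 were tested and 0 called by limma or by voom on recovered reads. Their adjusted p was 0.161 for Ube2z, 0.219 for Snf8 and 0.349 for Atp5g1, and 1 of them, Ube2z, had an unadjusted p under 0.05 (0.0440). Ube2z, a ubiquitin-conjugating enzyme gene, stood at 162 to 181 TPM in trex and 153 to 163 in wt; with array weights it was called (adjusted p = 0.00711). The other 3, Gip, Calcoco2 and Ttll6, were at most 0.513 TPM.

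The other Hox clusters give the paralogs, genes of the same rank that arose by duplication of the whole cluster. In groups 2 to 5, 3 of 4 HoxB genes fell against 2 of 8 in HoxA, HoxC and HoxD (median log2 differences -0.48 and -0.32). Those 2 were Hoxa4 (log2 difference -0.92 ± 0.14 SE) and Hoxd4 (-0.42 ± 0.09). In groups 6 to 9, 2 of 4 tested HoxB genes rose against 4 of 7 in the other clusters (medians 0.79 and 2.36). Whether HoxB differs from the other clusters was not tested.

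Group by group, the paralogs were not always alike. In group 1, Hoxb1 fell, while Hoxd1 was not called, at 15.8 TPM in trex and 9.89 in wt. In group 4, Hoxa4, Hoxb4 and Hoxd4 fell, and Hoxc4 was not called (log2 difference -0.47, adjusted p = 0.0618). In group 5, Hoxb5 fell, while Hoxa5 (-0.11, adjusted p = 0.679) and Hoxc5 (-0.40, adjusted p = 0.0624) did not pass. Group 3 had the same split, with Hoxb3 called and Hoxa3 (-0.0081) and Hoxd3 (-0.18) not. Hoxa2, like Hoxb2, was not called (-0.23). Leaving out any of trex replicates 3 and 4 and wt replicates 1 to 3 ended the call of Hoxd4 (adjusted p up to 0.0854).

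In groups 6 to 9, the mean wt level of each HoxB gene was above that of each paralog of its group. Hoxc8 stood at 0.396 TPM in wt and rose to 22.6 (log2 difference 4.09 ± 0.23 SE, adjusted p = 0.000169), where Hoxb8 already stood at 50.7 TPM in wt and was not called. Hoxc6 rose from 5.14 to 31.5 TPM and Hoxb6, at 31.1 TPM in wt, was not called. In group 7, both Hoxa7 (4.97 to 26.6 TPM) and Hoxb7 (12.6 to 28.6) rose. In group 9, both Hoxa9 (0.948 to 6.65 TPM) and Hoxb9 (59.2 to 330.8) rose, and Hoxd9 was not called (6.29 to 18.0, adjusted p = 0.129). Hoxa6 and Hoxd8 were not called either (adjusted p = 0.0619 and 0.0662). The call of Hoxa7 was lost without any library but wt replicate 4 (adjusted p up to 0.108).

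**Figure D4:**
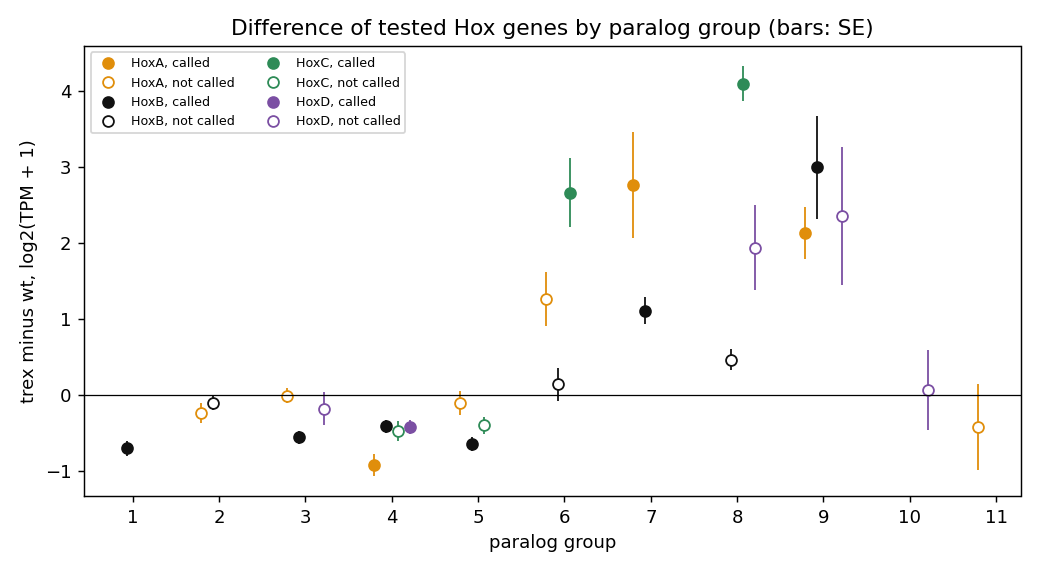
The log2 difference of tested Hox genes, trex minus wt on log2(TPM + 1), against paralog group, coloured by cluster, with group 1 shown for HoxB alone; bars are SE, and filled points passed an adjusted p of 0.05. HoxB points (black) range from -0.70 in group 1 to 2.99 in group 9, without a steady rise between them.

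The split of the wt libraries at Hoxb9 was also seen in some, not all, other rear Hox genes. By the root mean square difference of centred log2(TPM + 1) over the 8 libraries, the 5 tested genes most like Hoxb9 were Hoxa7 (0.39), Hoxc6 (0.49), Hoxd8 (0.65), Hoxa9 (0.75) and Hoxd9 (0.76). They were picked over the same libraries, wt included, so sharing the split is no separate result. In Hoxb6, Hoxb7 and Hoxb8 the wt log2 SD was 0.12, 0.22 and 0.21, against 1.63 in Hoxb9. Hoxd9 was at 0 in wt replicates 1 and 2 and at 15.1 and 10.1 TPM in wt replicates 3 and 4, the libraries that also held the most Hoxa10 and Hoxa11. The 5 genes most like Hoxb5 were Chst8 (0.078), Hoxb1 (0.098), Hoxb3 (0.099), Clec1a (0.10) and Grk4 (0.10). Chst8, a sulfotransferase gene, was at most 2.61 TPM in any library. Clec1a and Grk4, a lectin-like receptor gene and a receptor kinase gene, were at most 2.02 TPM. The likeness was measured with 1 added to TPM, which understates changes of weak genes. With 0.1 added instead, the log2 difference was -1.09 for Chst8, against -0.66 for Hoxb5, -0.72 for Hoxb1 and -0.56 for Hoxb3.

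Liver markers had the same split within wt. The summed TPM of 12 liver genes was 23.2, 15.2, 221 and 227 in wt replicates 1 to 4, and 27.0, 52.4, 304 and 628 in trex replicates 1 to 4. Of the 11 tested, 0 were called by limma or by voom on recovered reads, 0 had an unadjusted p under 0.05, and Alb, Fgb and Serpina1a were at 0 in at least 1 library. In trex the order was another: Hoxb9 was highest in replicate 1, where the liver sum was lowest. With a covariate for liver, the mean log2 level over that list, the same 4 members fell and the same 2 rose; the log2 difference of Hoxb9 was 2.71 (adjusted p = 0.0462) and that of Hoxb5 -0.61 (0.0152).

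Counts in the lists of tissues and regulators below stand beside 8.71% called over all tested genes, 4.94% higher and 3.77% lower, and nothing particular to a list is read from them. Of 10 genes of neurons 9 fell, among them Nefm, Nefl and Dcx, and their summed TPM was 218 to 348 in trex and 867, 859, 583 and 545 in wt replicates 1 to 4, with none at 0. Of 8 genes of neural progenitors 4 fell and none rose. Of 9 somite genes 2 rose and none fell, of 8 lateral plate and limb field genes 3 rose and 1 fell, and of 8 pharyngeal and foregut endoderm genes 3 fell and none rose. Cardiomyocyte (9 tested) and primitive erythroid genes (6 tested) held 0 calls by limma or voom and 0 unadjusted limma p under 0.05; their summed TPM ran from 199.7 to 2437 and from 3027 to 15559 in trex, and from 283 to 2484 and from 7062 to 15761 in wt. The part of these tissues in the HoxB differences was not tested.

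Of 18 genes of the retinoic acid response, Hoxb1 among them, 8 fell and 1 rose (median log2 difference -0.40). Tshz1 fell from 110.5 to 51.3 TPM, and Rarb, a retinoic acid receptor, from 54.9 to 25.3. Of 18 tested regulators of HoxB expression 5 fell and 1 rose. Besides Rarb, these falls took in Cdx1, which activates Hox genes in the trunk (9.32 ± 3.30 to 4.03 ± 0.045 TPM, SD, n = 4 each). For Cdx1 the call ended on leaving out any of trex replicates 3 and 4 and wt replicates 2 to 4 (adjusted p up to 0.0785).

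Of 9 Hox cofactors 2 fell and none rose. The change of Pbx2, a Hox partner, was small, a fall from 336.5 to 300.8 TPM. Among 20 Polycomb and trithorax genes, which keep Hox clusters silent or open, 17 were not called, and 3 were, beside 8.71% of all tested genes. Ezh1 (10.2 to 16.6 TPM) and Kdm6b (77.4 to 106 TPM) rose and Phc2 (131 to 107 TPM) fell. Of 7 tested genes of caudal axial progenitors, 1 rose, Wnt3a (9.94 to 18.7 TPM), against 4.94% of all tested genes, and Msgn1 was at 0 in at least 1 library. The calls of Pbx2, Ezh1, Phc2 and Wnt3a ended without any 1 library other than trex replicate 1 or 2, and that of Kdm6b without any but trex replicate 2 (adjusted p up to 0.149 over these genes).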

How the data were processed

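The authors deposited a single table of TPM; each library's column adds up to 1000000. CASAVA 1.8.2, STAR and the mm10 build are named, per the submitters' processing notes. Which counter, strand setting and annotation made the table is not given in the sources used here. Symbols, positions and exonic lengths came from GENCODE M21 (55240 of 55421 identifiers matched). TPM times exonic length was a whole multiple of 1 step, within 0.001 read, for 98.7% to 98.9% of low values (up to 200 reads), which gave the reads.

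Genes with a mean of at least 1 TPM (15717) were tested with limma 3.58.1 in R 4.3.3 (trend, two-sided, genotype only) on log2(TPM + 1), which understates changes of weak genes, with Benjamini-Hochberg adjustment over all of them. Folds are ratios of mean TPM. The fit was tested on simulated data (trex against wt, 15717 genes). It recovered 48% of changes of log2 size 0.5, 94% of size 1, 98% of size 1.5 and 96% of size 2. Of 176 calls, 8 were false. The 200 planted changes left out genes weak in wt, and each gene had the same spread in both groups. These shares need not hold for weak genes or for unequal spread, as at Hoxb9. Replicate libraries differed beyond sampling noise (chi-square per gene at least 4.92).

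Members and lists were chosen with earlier results of these data known. Named by rule were the members, transcripts in the span, coding genes within 200 kb, paralogs, up to 3 called genes of smallest p per list, and the 5 genes nearest to Hoxb5 and Hoxb9. Otx2 and genes named by a count were chosen after their values were seen. Some genes that the rule takes in are not reported here.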

Additional observations from a re-analysis of the deposited data

Results flagged for a closer look

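In wt, Hoxb3os was set far apart in replicate 1, at 33.3 TPM, from the other 3 libraries, at 18.4 to 20.8 TPM, by Dixon's criterion for groups of 4. It was the single such case among 32 sets of 4 values over the members and their tested neighbours, and chance gives about 1 in 20.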

How the results depend on the processing

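In all 22 alternatives every tested HoxB gene kept its sign, and 180 of 198 values kept their side of the threshold. Of the 2 rises, 1 remained without a filter, without a variance trend and with the replicate block; with sex as a covariate 0 rises and 0 falls were called (limma, 3 and 4 at an unadjusted p under 0.05; voom on recovered reads, without sex, called 2 and 4). Leaving out 1 library gave 1 to 2 rises and 3 to 4 falls, and 199 to 2926 genes in all, against 1369. Without a filter 694 genes were called, with array weights 5524, with the replicate block 687 and with sex 39; the causes were not tested. The labels do not say whether the numbers pair the libraries. Deviations of same-numbered libraries correlated at 0.16, -0.023, -0.0045 and 0.25, and those of differently numbered libraries at -0.26 to 0.155. Pairing was not settled by these values. Under the block no member's call changed other than that of Hoxb9. Quantile normalization gave 633 higher and 739 lower genes against 777 and 592. Hoxa5 turned to 0.0070 with sex; Hoxa3 turned to 0.028 with sex, 0.048 with the liver covariate and 0.00014 to 0.042 when trex replicate 3 or 4 or wt replicate 1 or 2 was left out (lowest over all leave-outs -0.081). Depth limits Hoxb13 and Mir10a, at no more than 1 read a library.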
